A study of Mus musculus with 24 samples.

Results

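The response to negative selection that B10 and NOD thymocytes have in common was measured on 12 of the 24 arrays of the series, all of them early single positive cells. S- cells came from TCR insHEL double transgenic mice and S+ cells from TCR transgenic mice, with 3 NOD and 3 B10 arrays in each state. Every mouse carried the 3A9 TCR transgene, which recognises a hen egg lysozyme peptide on the MHC class II molecules of the H2k haplotype, and both strains carried H2k. The S- mice carried in addition insHEL, in which the rat insulin promoter drives hen egg lysozyme in pancreatic beta cells and, under the control of Aire, in medullary epithelium of the thymus. The cells were CD4+ CD8low CD69+ and positive for the TCR clonotype, from healthy females of 6 to 8 weeks, sorted in the presence of actinomycin D and alpha-amanitin, and each array is a pool of sorted cells. The members were chosen by these labels and by no measured value. PreS cells, the CD4+ CD8+ cells that had not yet received a selection signal, filled the other 12 arrays (6 from TCR insHEL and 6 from TCR mice) and serve only as a level to which both states are set.

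A thymocyte whose receptor binds self peptide weakly is kept, and one whose receptor binds it strongly is deleted or diverted. Strong binding activates calcium, MAP kinase and NF-kB pathways, and induces immediate early genes such as the orphan nuclear receptor Nr4a1 and, through transcription, the BH3-only killer Bcl2l11 (Bim). NOD is the strain that develops autoimmune diabetes, and B10 is a strain without that disease. The model follows 1 receptor and 1 antigen, so it does not show how other receptors respond, and in bulk sorted cells fewer cells of a kind and less mRNA per cell cannot be told apart. Since each pool is a separate sort with nothing more stated of its animals, the p-values measure the spread between these pools.

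The 12 arrays fell on 7 hybridization days by their file headers, 4 of which held both states. Correlation between replicates ran from 0.843 to 0.967 over the 12838 probesets kept. The log2 ratio of 3' to 5' signals of the Gapdh and beta-actin controls, a measure of RNA integrity, lay between 0.99 and 3.12 on the S- arrays and between 1.39 and 5.82 on the S+ arrays (difference -1.26 within strain, exact permutation test over the arrays of each strain, two-sided p = 0.17, with 0.005 the smallest it allows). It was highest on NOD S+ replicates 1 and 2 and on B10 S+ replicate 1. Of 9 measured markers of the sorted cells all were present in both states, 4 had a positive and 5 a negative difference, and 3 of these (Cd4, Cd3e and Zbtb7b) had an unadjusted p under 0.05. Cd4 had signals of 968, 752 and 784 in NOD S- pools, against 852, 1052 and 1298 in NOD S+ pools, and 181, 354 and 413 in B10 S- pools, against 1257, 680 and 1048 in B10 S+ pools. The Cd4 groups overlapped in NOD and not in B10, with a log2 difference of -1.07 for both strains (limma adjusted p = 0.341), and its part in the results was not tested. Summed signals of 11 measured dendritic cell and macrophage markers ran from 1512 over a median of 2371 to 4220 in S- cells and from 1323 over a median of 3130 to 5567 in S+ cells, and the 3 NOD S+ arrays lay between 3988 and 5567. No erythroid marker of 4 was kept, and thymic epithelial markers were near background (3 of 8 kept, sums of 99.5 to 167 in S- and 75.1 to 167 in S+ cells).

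Across both strains, few probesets were called different between S- and S+ cells. This count depends on the model and on single arrays, and it does not measure how many genes respond. Of the 12838 probesets, 9 were higher in S- than in S+ cells (0.0701%) and 1 was lower (0.00779%), 10 in all (0.0779%), at an adjusted p under 0.05 (limma, strain as a block, Benjamini-Hochberg over all probesets). At an unadjusted p under 0.05 the counts were 617 higher (4.81%) and 492 lower (3.83%). Without NOD S+ replicate 3, 74 probesets passed, and without B10 S- replicate 2 or NOD S- replicate 2 there were 6. With a strain by state interaction in the model, 31 were higher (0.241%) and 5 lower (0.0389%), the 10 among them. The 9 probesets belong to 8 genes: the nuclear receptor gene Nr4a1, the stress sensor Gadd45b, the receptors Kit, Tnfrsf9 and Il2ra, the G protein regulator Rgs16, the membrane protein gene Pdzk1ip1 and the phospholipase gene Pla2g4f. In all 10 probesets the 3 S- arrays lay on 1 side of the 3 S+ arrays in NOD and in B10. Over all probesets, 91 had S- arrays above S+ arrays in both strains (0.709%), 65 had them below in both (0.506%), and 76 were apart in opposite directions (0.592%).

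**Figure D1:**
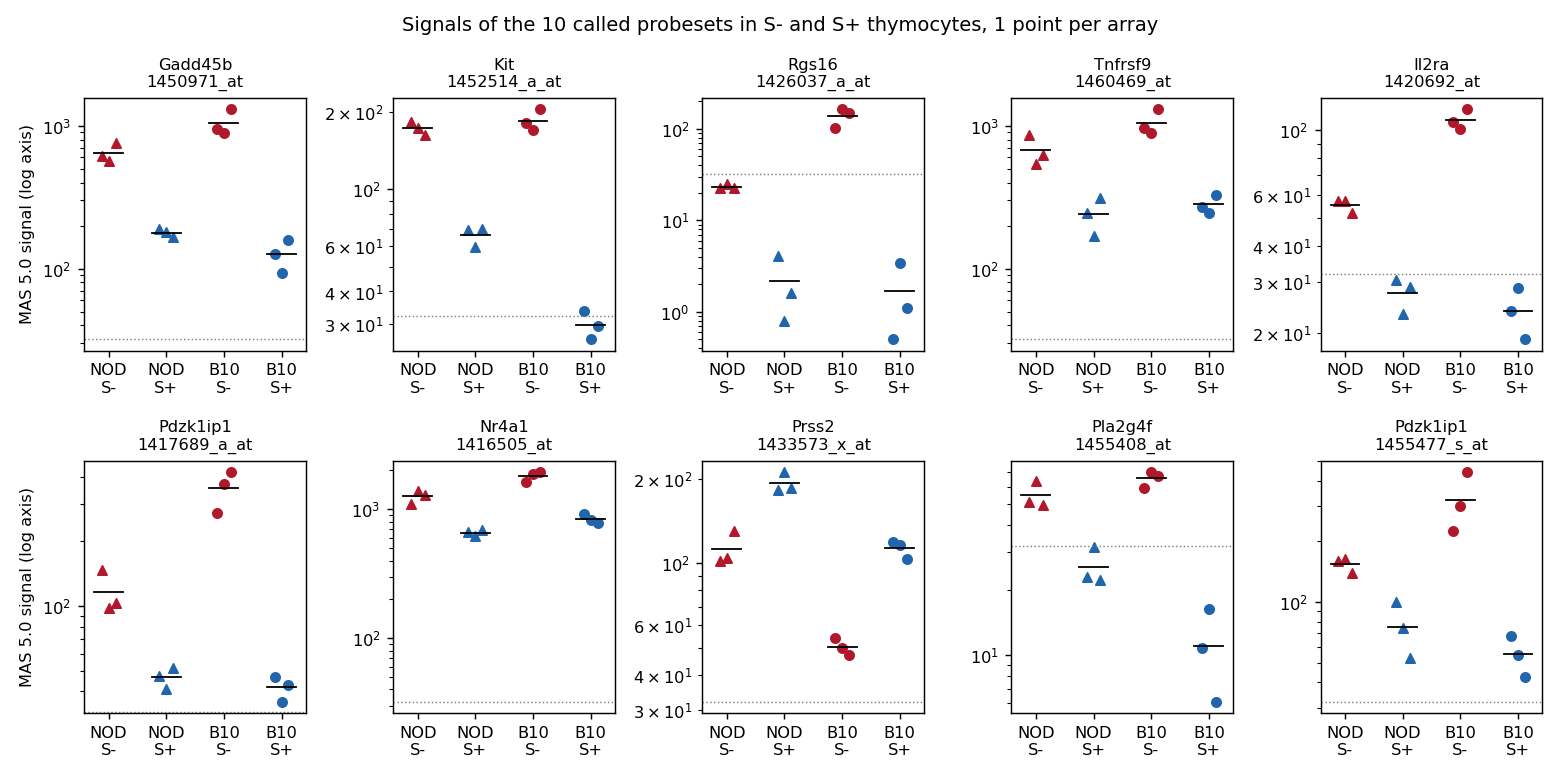
MAS 5.0 signals (log axis) of the 10 called probesets, 1 point per array, with NOD and B10 S- arrays in red, S+ arrays in blue and bars at the mean of 3 arrays. The dotted line is a signal of 32, the minimum used to keep a probeset, and in each panel the S- and S+ arrays of a strain do not overlap.

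Gadd45b encodes a stress-induced protein that binds and activates a MAP kinase kinase kinase upstream of p38 and JNK. Its probeset 1450971_at had signals of 609, 562 and 757 in NOD S- pools, against 190, 179 and 167 in NOD S+ pools. In B10 the signals were 942, 891 and 1301 in S- pools, against 127, 93 and 158 in S+ pools. All 6 S- pools were thus well above all 6 S+ pools, with a log2 difference of 2.47 (standard error 0.25, limma adjusted p = 0.00267). A further Gadd45b probeset, 1449773_s_at, was the first outside the threshold with a log2 difference of 1.95 (adjusted p = 0.0517), while 1420197_at stayed at signals of 28.9 to 64.9 and had a log2 difference of 0.25 (adjusted p = 0.685).

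Nr4a1 (Nur77) is an orphan nuclear receptor induced within a short time of receptor signalling. Signals of its probeset 1416505_at were 1094, 1378 and 1297 in NOD S- pools, against 664, 618 and 691 in NOD S+ pools. In B10 they were 1623, 1876 and 1939 in S- pools, against 926, 826 and 776 in S+ pools. The log2 difference of 1.00 (standard error 0.14, limma adjusted p = 0.0159) was the smallest among the called probesets that were higher, and it was of like size in NOD (0.86) and B10 (1.13). It missed the threshold, with adjusted p of 0.0515 to 0.0807, without B10 S+ replicate 2 or 3, B10 S- replicate 2 or 3, or NOD S- replicate 2 or 3.

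The 3 receptors called higher bind growth factors or costimulatory ligands. Kit, the receptor tyrosine kinase for stem cell factor and a marker of the earliest thymocyte precursors, had signals of 182, 173 and 163 in NOD S- pools, against 69.3, 59.3 and 69.8 in NOD S+ pools (probeset 1452514_a_at). In B10 the Kit signals were 180, 169 and 204 in S- pools, against 33.6, 26.1 and 29.5 in S+ pools. The S- pools of both strains reached the same level, and the S+ pools of NOD lay above those of B10, with a log2 difference between S- and S+ of 2.03 (standard error 0.22, limma adjusted p = 0.00267). The other Kit probeset, 1415900_a_at, had signals of 4.8 to 17.5 in S- and 8.6 to 35.7 in S+ pools and was not kept.

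Tnfrsf9 (4-1BB), a costimulatory receptor of the TNF receptor family, had signals of 865, 537 and 623 in NOD S- pools, against 243, 170 and 313 in NOD S+ pools (probeset 1460469_at). In B10 the Tnfrsf9 signals were 959, 889 and 1302 in S- pools, against 272, 247 and 328 in S+ pools. The states were apart by a log2 difference of 1.71 (standard error 0.21, limma adjusted p = 0.00587). A further Tnfrsf9 probeset, 1428034_a_at, had a log2 difference of 3.42 (adjusted p = 0.0771) with S+ signals under 32, and 1421481_at did not exceed 41.2 on any of the 12 arrays.

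Il2ra encodes CD25, the alpha chain that gives the interleukin 2 receptor its high affinity. Probeset 1420692_at had signals of 57.1, 57.2 and 52.1 in NOD S- pools, against 30.5, 23.3 and 28.8 in NOD S+ pools. In B10 they were 107, 101 and 118 in S- pools, against 23.8, 28.6 and 19.1 in S+ pools. Every S+ pool was under the signal of 32 used as a minimum, so the size of the log2 difference (1.64, standard error 0.21, limma adjusted p = 0.00852) is not exact. The Il2ra probeset 1420691_at was apart in B10 (log2 difference 2.22) and overlapped in NOD (0.28), with an adjusted p of 0.348 for both together.

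Rgs16, which speeds GTP hydrolysis by G protein alpha subunits and so dampens chemokine receptor signals, gave the largest log2 difference among the called probesets, 5.38 (standard error 0.60, limma adjusted p = 0.00309), at probeset 1426037_a_at. The signals behind it were low, with 22.5, 24.9 and 22.5 in NOD S- pools, against 4.1, 0.8 and 1.6 in NOD S+ pools. In B10 they were 103, 164 and 149 in S- pools, against 0.5, 3.4 and 1.1 in S+ pools. All but the B10 S- pools were thus under 32, and with signals under 16 set to 16 the difference was 1.80. Probeset 1455265_a_at of Rgs16 had more signal and gave 2.56 (adjusted p = 0.214), with 155, 203 and 152 in NOD S- pools, against 193, 65.6 and 33.8 in NOD S+ pools, which overlap.

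Pdzk1ip1, a small membrane-associated protein also known as MAP17, was the only gene with 2 called probesets. Probeset 1417689_a_at had signals of 148, 97.9 and 104 in NOD S- pools, against 46.9, 41.1 and 51.2 in NOD S+ pools. In B10 the Pdzk1ip1 signals were 273, 371 and 420 in S- pools, against 46.7, 35.7 and 42.7 in S+ pools. The S+ pools of the strains overlapped and the S- pools of NOD lay below those of B10, with a log2 difference of 2.23 (standard error 0.29, limma adjusted p = 0.00852) and of 1.81 at 1455477_s_at (adjusted p = 0.0397), the last probeset inside the threshold. Pla2g4f, a cytosolic phospholipase A2, was chosen for naming after its values were seen, since its signals are low: 51.2, 63.8 and 49.6 in NOD S- pools, against 23.1, 31.7 and 22.2 in NOD S+ pools, and 59.2, 70.2 and 67.4 in B10 S- pools, against 10.8, 16.3 and 6.1 in B10 S+ pools. The log2 difference was 1.91 (adjusted p = 0.0335).

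The only probeset called lower, 1433573_x_at, is annotated to Prss2, a trypsinogen gene that lies within the T cell receptor beta locus. Its signals were 102, 104 and 130 in NOD S- pools, against 182, 211 and 185 in NOD S+ pools. In B10 the signals were 54, 50 and 46.9 in S- pools, against 119, 116 and 104 in S+ pools. S- pools of each strain lay below its S+ pools by a log2 difference of -1.02 (standard error 0.16, limma adjusted p = 0.0295), while the NOD S- and B10 S+ pools overlapped. Trypsinogens form a family of near-identical genes, and the suffix of the probeset marks probes that match several transcripts, so the gene measured is uncertain. The other 3 Prss2 probesets had log2 differences of -1.23, -0.69 and -0.67 and none passed (adjusted p between 0.348 and 0.630).

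The 10 calls were set against the hybridization day. In 4 pairs, an S- and an S+ array of 1 strain were hybridized on the same day (NOD S- replicate 2 with S+ replicate 1, NOD S- replicate 1 with S+ replicate 3, B10 S- replicate 3 with S+ replicate 1, and B10 S- replicate 1 with S+ replicate 2). Since S- and S+ arrays of the 10 probesets do not overlap within a strain, the direction within these pairs is fixed and is no check on the day, and the pairs show sizes only. Gadd45b differed within the pairs by 1.58 and 1.91 in NOD and by 3.43 and 3.37 in B10 on the log2 scale, Kit by 1.44 and 1.33 in NOD and by 2.57 and 2.84 in B10, and Nr4a1 by 0.94 and 0.74 in NOD and by 1.12 and 0.96 in B10. With day as a fixed block, which leaves few degrees of freedom, no probeset passed (smallest adjusted p 0.599, 827 at an unadjusted p under 0.05), and the differences of the 10 probesets were of nearly the same size, such as 2.57 for Gadd45b, 2.04 for Kit and 0.94 for Nr4a1. With day as a random block 16 probesets passed, the 10 among them.

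**Figure D2:**
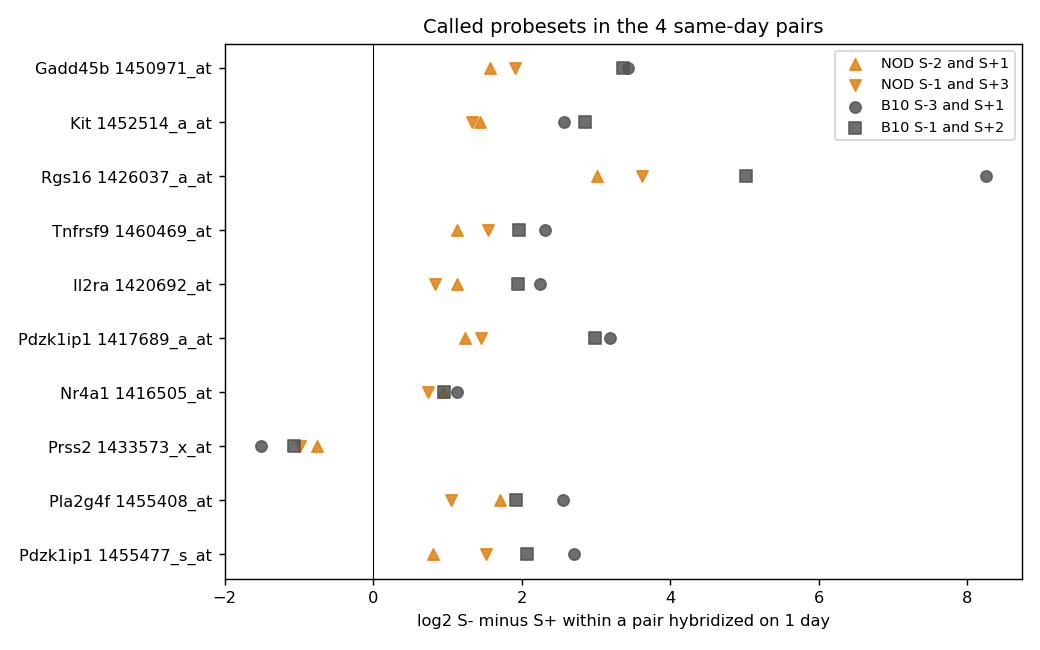
Log2 difference of S- minus S+ signals of the called probesets within the 4 pairs of arrays hybridized on 1 day, 2 pairs of NOD (triangles) and 2 of B10 (circles and squares). The side of 0 is fixed by the separation of the arrays, and the pairs show the size of each difference on 1 day, with NOD values nearer 0 than B10 values in every probeset.

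The 3' to 5' ratio, which was higher on average in S+ arrays, was set against the calls in the same way. With it as a covariate 21 probesets passed, including the 10. Without NOD S+ replicates 1 and 2, the arrays of highest ratio, 22 passed, including the 10. Without B10 S+ replicate 1 as well, 9 passed, 4 of them among the 10, with a lone NOD S+ array assumed to vary like the other groups. Gadd45b, Kit, Rgs16, Tnfrsf9, Il2ra and the Pdzk1ip1 probeset 1417689_a_at passed in each of 12 refits without 1 array, and the other 4 did not. Pla2g4f passed in 4 refits, those without B10 S+ replicate 3, NOD S+ replicate 2 or 3 or NOD S- replicate 1. Prss2 passed in 3, without NOD S+ replicate 1 or 3 or NOD S- replicate 3, and the Pdzk1ip1 probeset 1455477_s_at in 2, without NOD S+ replicate 1 or 3.

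Promoter sequences of the called genes (RefSeq, GRCm38.p6, from 250 bases before to 50 after the start site) were read for sites of factors downstream of the receptor, and the matches in 3 of them are shown because NF-kB and EGR factors are classical targets of receptor signals. Capitals mark the match, and the windows are chr2:11642586-11642605 and chr15:101266838-101266857 for the NF-kB site and chr15:101266781-101266799 and chr10:80930056-80930074 for the EGR site (GCGNGGGCG). All are written as the plus strand, on which both EGR matches and the Nr4a1 NF-kB match read as the reverse complement of the site.
Il2ra, NF-kB site: cggcaGGGAATCCCCctttc
Nr4a1, NF-kB site: cgccaGGGGAGCCCCagtgc
Nr4a1, EGR site: agtggCGCCCCCGCccctc
Gadd45b, EGR site: cgcagCGCCCGCGCgctca
The Il2ra stretch also holds a second, overlapping match of the NF-kB site 1 base further on. Among 68 genes with a promoter window whose S- arrays lay above S+ arrays in both strains, 7 held the NF-kB site (10.3%), against 0 of 50 genes with S- arrays below in both strains and 5.09% of the 6410 genes tested. The EGR site was in 16.2% of the 68, 6% of the 50 and 10.6% of all, and the CHR element (TTTGAA or TTCGAA), known from promoters of cell cycle genes, in 26.5%, 12% and 13.9%. Both strands were searched. The CCAAT box was in 30.9%, 36% and 38.6%, and in 3 of the 8 genes called higher. Shares for the E2F site (TTTGGCGC or TTTCCCGC) were 8.82%, 2% and 3.4%, and for the AP-1 site (TGANTCA) 7.35%, 4% and 5.02%. They were 1.47%, 0% and 3.29% for the CRE (TGACGTCA) and 1.47%, 0% and 1.23% for the CArG box. No match of the E2F site, the AP-1 site, the CRE or the CArG box lay in the windows of the 8 genes called higher. These are descriptions of letters in a short window and no test was made.

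Just outside the threshold, with adjusted p between 0.0517 and 0.0840, were 12 probesets of 12 genes, all with a positive difference and all but Gtf2f1 with S- and S+ arrays apart in both strains. Of them 3 are TNF receptor family members: Tnfrsf1b, the TNF receptor of lymphocytes, at a log2 difference of 1.11 (limma adjusted p = 0.0589), Tnfrsf18 (GITR) at 0.93 (adjusted p = 0.0771) and the probeset of Tnfrsf9 given above. Tnfrsf18 had signals of 1138, 979 and 1194 in NOD S- pools, against 518, 482 and 903 in NOD S+ pools, and 1484, 1774 and 1489 in B10 S- pools, against 712, 769 and 825 in B10 S+ pools. NOD S+ replicate 3 stood above the other 2 NOD S+ pools and still below every S- pool. The rest included Plagl1, a zinc finger protein that can halt the cell cycle (3.45, with S+ signals under 32), Lmna, which encodes lamin A and C (1.65), Icam1, the ligand of the integrin LFA-1 (0.83), Smox, the spermine oxidase (1.02), and Kdm2b, a histone demethylase (0.90).

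Bcl2l11, the killer through which strongly signalled thymocytes die, was measured by 5 kept probesets, and all had positive log2 differences, of 0.44 to 1.39, with adjusted p between 0.210 and 0.640. At probeset 1435449_at the signals were 185, 292 and 343 in NOD S- pools, against 60.7, 79.7 and 96.6 in NOD S+ pools. In B10 they were 184, 198 and 490 in S- pools, against 181, 111 and 114 in S+ pools. The states did not overlap in either strain, with B10 S+ replicate 1 just under B10 S- replicate 1, and the difference of 1.39 (standard error 0.30) did not pass (limma adjusted p = 0.210). This probeset had the largest of the 5 differences in NOD (1.80, against 0.99 in B10). Probeset 1426334_a_at of Bcl2l11 instead had the larger difference in B10. Its signals were 31.6, 30.5 and 29.7 in NOD S- pools, against 24, 35.9 and 30 in NOD S+ pools. In B10 they were 75, 97 and 103 in S- pools, against 27.6, 26.6 and 25.7 in S+ pools. Its groups overlapped in NOD (log2 difference 0.11) and it was called in B10 alone (1.74, adjusted p = 0.0237), with an adjusted p of 0.123 for the difference between strains. The 3 other Bcl2l11 probesets overlapped in at least 1 strain. Of 8 measured killers of the BCL2 family, each taken at its probeset of highest mean signal, 2 had a positive difference, and Bid, the BH3-only protein cleaved by caspase-8, was the 1 with an unadjusted p under 0.05 (log2 difference 1.08, adjusted p = 0.245).

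Gene lists were described by their members at 1 probeset a gene, that of highest mean signal, beside a median of 0.01 over all probesets, 6612 of 12838 of which were positive, and beside the 4.81% higher and 3.83% lower at an unadjusted p under 0.05. Over all lists 4 genes were called, Kit, Tnfrsf9, Il2ra and Nr4a1, since Gadd45b and Rgs16 entered at a brighter probeset that was not called. Of 9 measured NF-kB subunits and inhibitors, 7 had a positive difference, 5 of them at an unadjusted p under 0.05, none was called, and the median was 0.47 (0.51 in NOD and 0.48 in B10). The 5 were Rel at 1.16, Relb at 0.95, Nfkb2 at 0.84, the nuclear cofactor Bcl3 at 0.53 and the inhibitor Nfkbie at 0.47, with adjusted p of 0.214 to 0.579. Over the alternatives, refits without 1 array aside, Rel ran from 1.11 to 1.55, Relb from 0.44 to 0.95 and Nfkb2 from 0.47 to 0.87. Bcl3 ran from 0.31 to 0.56 and Nfkbie from 0.15 to 0.48. Rel had signals of 58.5, 47.0 and 46.8 in NOD S- pools, against 41.0, 30.1 and 15.5 in NOD S+ pools, and 66.8, 91.3 and 84.2 in B10 S- pools, against 37.1, 19.4 and 42.4 in B10 S+ pools, so that the states did not overlap within a strain.

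Of 17 measured TNF receptors and TRAF adaptors, 1 was called higher (Tnfrsf9), 6 were positive and 1, Traf5, was negative at an unadjusted p under 0.05, and the median was 0.40 (0.44 in NOD and 0.03 in B10). Besides those above, Tnfrsf4 (OX40) differed by 0.90 (limma adjusted p = 0.240) with signals of 705, 662 and 761 in NOD S- pools, against 556, 471 and 460 in NOD S+ pools, and 1004, 1317 and 1788 in B10 S- pools, against 599, 438 and 605 in B10 S+ pools. Of 10 measured genes of regulatory T cells, which share Il2ra, Tnfrsf4, Tnfrsf18 and Ctla4 with activated T cells, 7 were positive, 1 was called (Il2ra) and the median was 0.62 (0.47 in NOD and 0.38 in B10). Gpr83, a receptor of regulatory T cells, had a difference of -0.81 (adjusted p = 0.419), against the direction of the others at an unadjusted p under 0.05. Il2rb, the beta chain of the interleukin 2 receptor, differed by 0.92 (adjusted p = 0.240) with no overlap within a strain.

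The EGR, AP-1, GADD45 and SOCS lists held no called member. Of 5 measured EGR factors and NAB corepressors all had a difference under 0 and none an unadjusted p under 0.05, with a median of -0.22. Among 6 measured AP-1 factors Batf, a partner of JUN proteins, had a difference of 1.36 (limma adjusted p = 0.240) and Fos of 0.80 (adjusted p = 0.323). Gadd45g, a relative of Gadd45b, differed by 1.02 (adjusted p = 0.216). Of 12 measured SOCS and STAT genes 10 were positive, with a median of 0.29 (0.64 in NOD and -0.06 in B10). Against them Socs3, an inhibitor of cytokine receptor signalling, had a log2 difference of -1.20 (adjusted p = 0.214), with signals of 92.1, 72.5 and 35.6 in NOD S- pools, against 111, 98.6 and 111 in NOD S+ pools. In B10 the Socs3 signals were 42.5, 43.8 and 74.3 in S- pools, against 226, 115 and 139 in S+ pools.

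Ribosome biogenesis, proteasome and polyamine genes had small positive medians of like size in both strains. Of 24 ribosome biogenesis genes 21 were positive, 4 of them at an unadjusted p under 0.05, with a median of 0.35 (0.31 in NOD and 0.32 in B10), and nucleolin (Ncl) had the largest of these at 0.94 (limma adjusted p = 0.461). Of 26 proteasome subunits 19 were positive, 4 at an unadjusted p under 0.05, with a median of 0.32 (0.36 in NOD and 0.30 in B10). Over the alternatives, refits without 1 array aside, these 4 ran from 0.23 to 0.49 (Psma1), 0.43 to 0.58 (Psma7), 0.10 to 0.69 (Psmc1) and 0.09 to 0.74 (Psmc5). With the 3' to 5' ratio as a covariate the median of the ribosome biogenesis list was 0.11 and that of the TNF receptor list 0.06, and without NOD S+ replicates 1 and 2 they were 0.12 and 0.02. Without NOD S+ replicate 3 the TNF receptor median was 0.61. Median levels of the proteasome list were 8.76, 8.95 and 9.69 on NOD S+ replicates 1, 2 and 3, against 9.51 to 9.60 in NOD S- pools (log2 signal). Those of the ribosome biogenesis list were 7.55, 7.75 and 8.34, against 8.16 to 8.32. In both lists NOD S+ replicate 3 thus lay above every NOD S- pool, and replicates 1 and 2 lay below. In B10 the proteasome levels were 9.22, 9.78 and 9.96 in S+ pools, against 9.80 to 10.05 in S- pools. Of 8 polyamine genes 6 were positive, among them Smox and Odc1, the enzyme of the first step (0.62, adjusted p = 0.402).

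**Figure D3:**
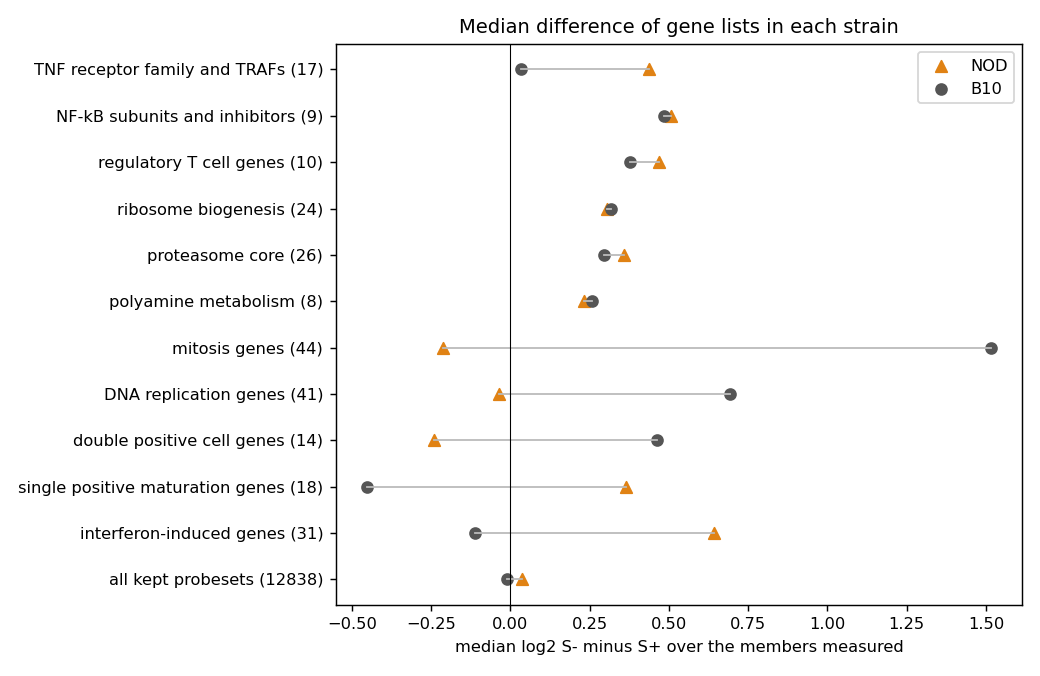
Median log2 difference of S- minus S+ over the measured members of 11 gene lists and over all kept probesets, in NOD (triangles) and B10 (circles), with the number measured in parentheses. The upper 6 lists have medians above 0 in both strains, and mitosis, replication, double positive, maturation and interferon lists have medians on opposite sides of 0.

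The strains were then compared, since no array is common to their differences. The log2 differences of NOD and B10 had a correlation of 0.05 over the 12838 probesets, with some arrays of both strains hybridized on the same days. In NOD alone no probeset passed (limma, 258 higher, or 2.01%, and 230 lower, or 1.79%, at an unadjusted p under 0.05), and without NOD S+ replicate 3 there were 1778. In B10 alone 43 were higher (0.335%) and 7 lower (0.0545%), against 5.29% higher and 4.77% lower at an unadjusted p under 0.05. Without B10 S- replicate 2 none passed in B10, and without any other B10 array but S+ replicate 1 there were 16 to 24. Of the 50 called in B10, 37 had the same sign in NOD (74.0%, against 51.7% of all probesets), with a median of 0.33 in NOD in the B10 direction, against 2.38 in B10. Looked up the other way, 60.1% of 258 probesets higher in NOD at an unadjusted p under 0.05 were positive in B10, and 46.5% of 230 lower in NOD were negative in B10. Median sizes in the NOD direction were 1.03 in NOD and 0.15 in B10 for the 258, and 0.86 and -0.03 for the 230. Choosing probesets by 1 strain raises their size in that strain, so these medians do not compare the strength of the responses. Of the 9 probesets called higher in both strains together, NOD had the smaller difference in all 9, from 0.86 for Nr4a1, against 1.13 in B10, to 3.96 for Rgs16, against 6.80 in B10. None of these differences between strains passed over all probesets, with the adjusted p at 0.132 for the Pdzk1ip1 probeset 1417689_a_at, 0.256 for Kit and 0.390 for Gadd45b.

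**Figure D4:**
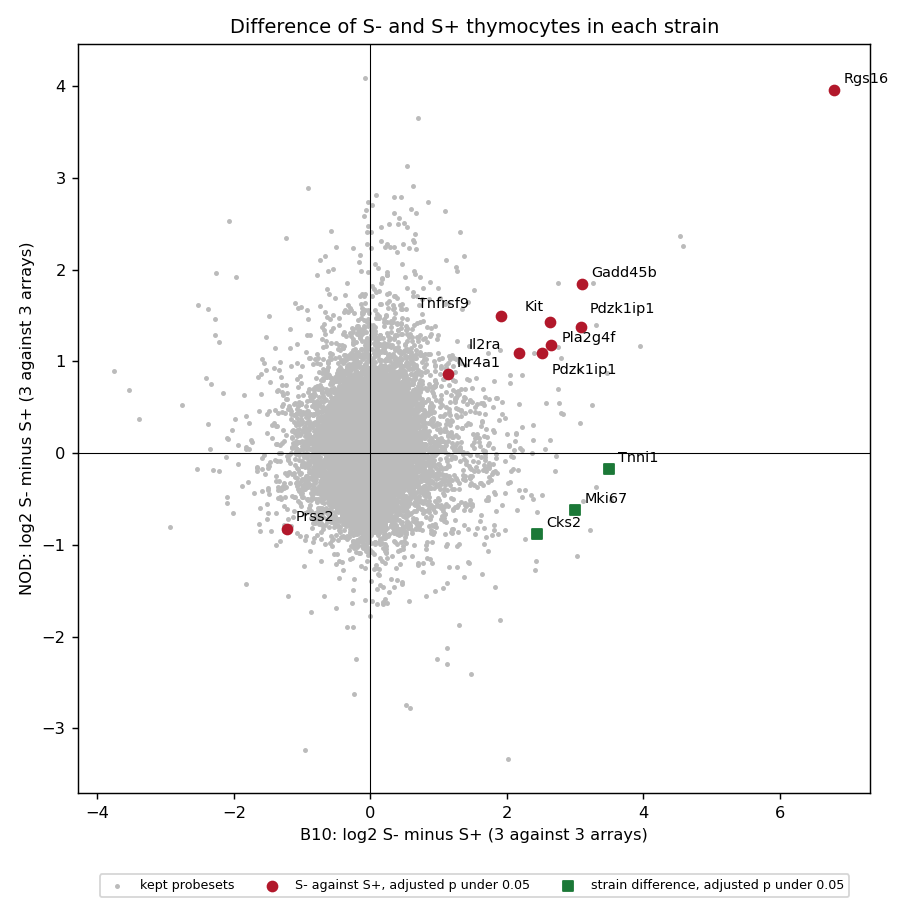
Log2 difference of S- minus S+ in NOD (vertical axis) and B10 (horizontal axis), 1 point per kept probeset, each from 3 against 3 arrays. The 9 probesets called higher lie in the upper right quadrant and Prss2 in the lower left, and the 3 probesets with a called difference between strains (green squares) are above 0 in B10 and below 0 in NOD.

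At 3 probesets the response differed between the strains (limma, 0.0234% of probesets, all smaller in NOD, against 3.79% smaller and 4.16% larger in NOD at an unadjusted p under 0.05). Cks2, a subunit of the cyclin-dependent kinases, had signals of 420, 396 and 317 in NOD S- pools, against 879, 702 and 446 in NOD S+ pools, and 805, 741 and 694 in B10 S- pools, against 204, 115 and 113 in B10 S+ pools. Mki67, the Ki-67 proliferation antigen, had signals of 428, 310 and 294 in NOD S- pools, against 582, 497 and 432 in NOD S+ pools, and 744, 671 and 734 in B10 S- pools, against 52.5, 111 and 129 in B10 S+ pools. At these probesets the S- pools thus lay below the S+ pools in NOD, by a narrow gap, and above them in B10. Neither passed in NOD alone (limma adjusted p = 0.742 for both). The differences between strains were -3.33 for Cks2 (adjusted p = 0.0397) and -3.63 for Mki67 (adjusted p = 0.0296). A further kept Cks2 probeset differed by 2.16 in B10 and by -0.18 in NOD, where its S- and S+ arrays overlapped. Its difference between strains of -2.35 did not pass (limma adjusted p = 0.0587). Tnni1, slow skeletal troponin I, was above 32 in B10 S- pools alone (46.0, 47.7 and 70.8) and between 2.8 and 5.8 in the other 9. Its difference between strains was -3.66 (limma adjusted p = 0.00481), a size that is not exact. In PreS pools its signal did not exceed 5, so it was kept only through the B10 S- pools. The same pools carry its difference, so the call is no independent support. Without the 2 NOD S+ arrays of highest 3' to 5' ratio no probeset passed this test, and without NOD S+ replicate 3 there were 311. There were 11 without B10 S+ replicate 1, 7 without B10 S+ replicate 3, and 1 without any of B10 S+ replicate 2, NOD S+ replicates 1 and 2, B10 S- replicates 1 and 2 and NOD S- replicates 1 and 2.

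Mitosis genes as a list were not part of what the strains shared. Of 44 measured, 9 were positive in NOD and 44 in B10, with medians of -0.21 in NOD and 1.52 in B10, and 35 had a smaller difference in NOD at an unadjusted p under 0.05, a share to be read against the 3.79% of all probesets. The median level of the list per array lay between 6.94 and 7.30 in NOD S- pools, against 6.83 and 7.72 in NOD S+ pools, and between 7.53 and 8.04 in B10 S- pools, against 5.56 and 6.12 in B10 S+ pools (log2 signal). The B10 S+ pools stood lowest and the NOD S+ pools overlapped the NOD S- pools. DNA replication genes followed with medians of -0.04 in NOD and 0.69 in B10. Maturation genes of single positive cells had medians of 0.36 in NOD and -0.45 in B10, and 31 interferon-induced genes 0.64 in NOD, where all 31 were positive, and -0.11 in B10, where 11 were. NOD S+ replicates 1 and 2 had the highest 3' to 5' ratios, and replicate 3 did not. Dendritic cell and macrophage sums of NOD S+ pools overlapped those of NOD S- pools. Median levels of these 11 markers did not, at 6.57 to 7.25 in NOD S- and 7.44 to 7.89 in NOD S+ pools. In B10 the levels ran from 5.93 to 8.37 in S- and from 6.12 to 7.11 in S+ pools. The highest single level was thus that of a B10 S- pool. In NOD 0 of the 11 were positive (median -0.74), against 8 in B10 (median 0.19). In NOD 6 were lower in S- pools at an unadjusted p under 0.05, against 1.79% of all probesets. The part of these in the NOD medians was not tested.

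The distance from PreS cells shows where each called gene stood before selection. In 24 arrays with strain as a block, 9.39% of probesets were higher and 9.45% lower in S- than in PreS cells of TCR insHEL mice, and 8.97% higher and 11.4% lower in S+ than in PreS cells of TCR mice. Gadd45b, Tnfrsf9, Nr4a1 and Pla2g4f were higher than PreS in both states, with log2 differences of 6.64, 4.22, 3.58 and 3.11 in S- cells and of 4.98, 3.15, 2.57 and 2.05 in S+ cells (limma adjusted p of 0.00449 or less). PreS signals were low for Gadd45b (mean 8.5, from 2.5 to 49.4) and Pla2g4f (0.7 to 10.2), so the sizes for these 2 genes are not exact. The Gadd45b probeset 1449773_s_at gave 5.11 in S- and 3.50 in S+ cells. Nr4a1 averaged 1535 ± 336 in S- cells and 750 ± 115 in S+ cells (SD, n = 6 each), and 134 ± 59.6 in PreS cells (n = 12).

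Kit was higher than PreS in S- cells by a log2 difference of 2.69 (limma adjusted p = 9.1e-08), and its difference in S+ cells was 0.42 (adjusted p = 0.265). The probesets of Rgs16 disagreed in S+ cells. The brighter one, 1455265_a_at, was higher than PreS by 4.07 in S- cells (adjusted p = 2.7e-06) and by 2.81 in S+ cells (adjusted p = 1.8e-04). The called one, 1426037_a_at, was higher by 5.26 in S- cells (adjusted p = 4.0e-07) and had a difference of -0.02 in S+ cells (adjusted p = 0.983), with S+ and PreS signals both near 0. Pdzk1ip1 at probeset 1417689_a_at differed from PreS by 3.13 in S- cells (adjusted p = 3.7e-08) and by 0.78 in S+ cells (adjusted p = 0.0524), and its probeset 1455477_s_at was higher than PreS by 2.94 in S- cells (adjusted p = 3.4e-07) and by 1.27 in S+ cells (adjusted p = 0.00415). At the called probeset of Il2ra, 1420692_at, the difference from PreS was 0.11 in S- cells (adjusted p = 0.829) and -1.27 in S+ cells (adjusted p = 0.00225), with PreS signals of 21.6 to 143. At 1420691_at it was 1.20 in S- cells (adjusted p = 0.0329) and -0.61 in S+ cells (adjusted p = 0.285). Prss2 differed from PreS by 0.13 in S- cells (adjusted p = 0.644) and by 1.14 in S+ cells (adjusted p = 3.6e-05). The comparisons of S- and of S+ with PreS use the same S- and S+ arrays as the calls themselves.

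**Figure D5:**
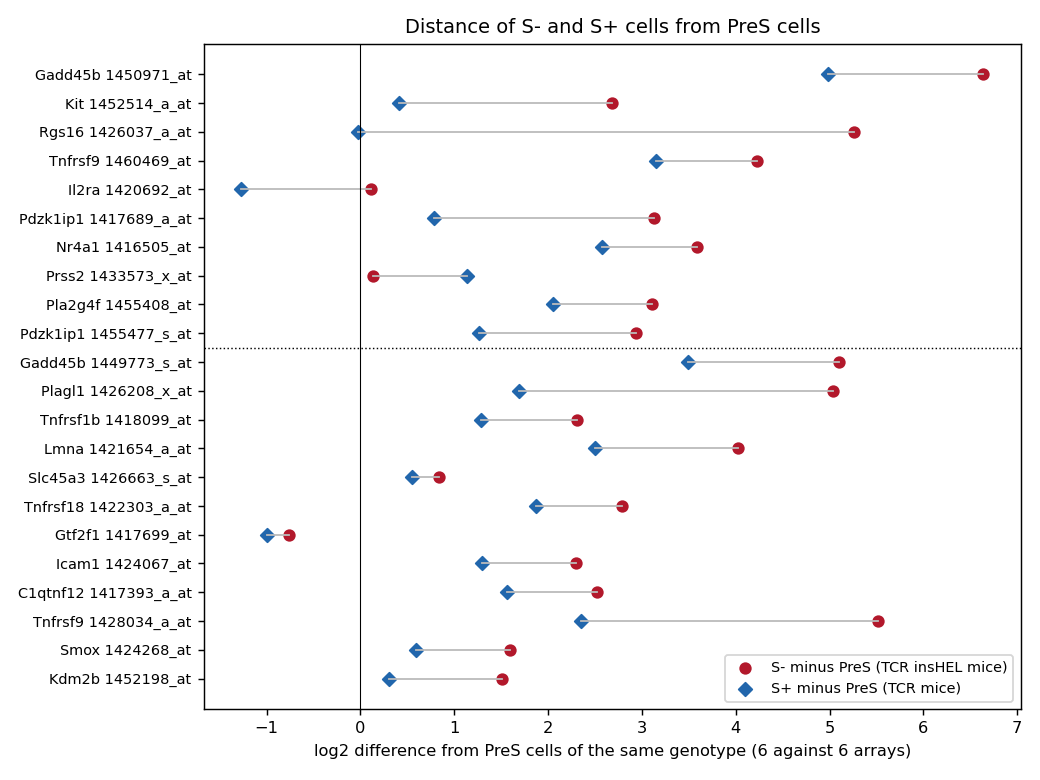
Log2 difference from PreS cells of the same genotype for S- cells (red circles) and S+ cells (blue diamonds), 6 against 6 arrays each with strain as a block, for the 10 called probesets (above the dotted line) and the 12 with adjusted p between 0.05 and 0.1. The called probeset of Gadd45b lies farthest from PreS cells in both states, with PreS signals averaging 8.5, so that its distance is not exact. The called probesets of Il2ra and Prss2 are near 0 in S- cells.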

How the data were processed

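RNA from 24 sorted thymocyte pools was amplified and hybridized to Affymetrix 430A arrays. The authors deposited MAS 5.0 signals on a linear scale, scaled to 1 trimmed mean per array, for 22626 probesets beside 64 controls. Present calls were not used here.

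Values of 0 (33) were set to 0.1, and log2 signals were standardized on each array as in the study's methods. A probeset was kept when its signal reached 32 on all 3 arrays of any of the 8 conditions (12838 probesets, 7831 genes). Symbols came from the platform annotation updated through RefSeq (20380 probesets with 1 symbol, 691 with several, 1555 with none). The 12 single positive arrays were modelled in limma (version 3.58.1, R version 4.3.3) with strain as a block, two-sided, and p-values were adjusted by Benjamini-Hochberg over all kept probesets. An interaction term gave the difference between strains. Named genes were list members, or probesets called and apart in both strains whose mean signal reached 100 in either state (12 a side at most). Members, lists and tests were chosen with earlier results of these data known. The code was tested on simulated data, and the number of arrays limits the precision.

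Alternatives changed the normalization, floor, filter, model or samples, or added a day or replicate block, array weights or the 3' to 5' ratio. Leaving out the 2 or 3 arrays of highest ratio was an alternative added once the data had been seen.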

Additional observations from a re-analysis of the deposited data

Results flagged for a closer look

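The difference between S- and S+ cells was itself different between the strains at 3 probesets (limma interaction test). The NOD difference minus the B10 difference was -3.33 for Cks2 and -3.63 for Mki67 on the log2 scale. At these probesets the S- and S+ arrays were apart in opposite directions in the strains, as they were at 0.592% of all probesets. The gap in NOD was narrow, with nearest S- and S+ signals of 428 and 432 for Mki67 and 420 and 446 for Cks2. Neither passed in NOD alone (limma adjusted p = 0.742 for both). At a further Cks2 probeset, which did not pass, the S- and S+ arrays overlapped in NOD. The difference between strains was -3.66 for Tnni1, for which signals of 9 of the 12 arrays were under 6. Tnni1 was kept only through the B10 S- arrays that carry this difference, so passing in every refit is little check on it. Leaving out 1 array at a time, the value ranged from -3.64 to -3.08 for Cks2 (past the threshold in 2 of 12 refits), from -3.90 to -3.23 for Mki67 (3 of 12) and from -3.80 to -3.40 for Tnni1 (12 of 12). Groups of 3 arrays were too small for a test of single outlying arrays.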

How the results depend on the processing

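All 10 called probesets kept their direction in each alternative in which they were measured. Their S- and S+ arrays do not overlap within a strain, so leaving out arrays could not change a direction, and this is little check. The count of 10 was 6 with no filter on low signals, 36 with an interaction term, 51 with all 24 arrays in 1 fit, 0 with day as a fixed block, 16 with day as a random block, 18 with array weights, 21 with the 3' to 5' ratio as a covariate, and 22 without the 2 and 9 without the 3 arrays of highest ratio. The methods' test gave 1062 at an unadjusted p under 0.05 and 5 after Benjamini-Hochberg. Without single arrays it was 6 to 74, the most without NOD S+ replicate 3.

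The 3 differences between strains became 5 with MAS 5.0 scaling only, 5 with quantile normalization, 11 with a floor of 16, 15 with all 24 arrays, 0 with day fixed, 31 with day random, 206 with array weights, 975 by the methods' test unadjusted and 1 after Benjamini-Hochberg, and 0 without the 2 or the 3 arrays of highest ratio. Without single arrays there were 1 to 311. Of the 6 genes named by rule, 0 passed with day fixed, 2 without the 3 arrays of highest ratio and 4 to 6 without single arrays. The 4 called list members became 9 with an interaction term, 19 with all 24 arrays, 0 with day fixed, 7 with day random, 7 with array weights, 9 with the ratio as a covariate, 8 without the 2 arrays of highest ratio and 3 to 16 without single arrays. Without single arrays B10 alone gave 0 to 38 probesets, against 50, and NOD alone 0 to 1778, against 0. The cause of these changes was not tested. The lookup between strains gave no value without the filter, since no B10 probeset then passed.

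Replicate numbers were not taken as pairs, because S- and S+ arrays of a strain that share a number deviated with a mean correlation of -0.04 (-0.31 to 0.35 over 6 pairs). With the replicate block 3 probesets passed (Gadd45b, Rgs16 and Tnfrsf9), with 0 differences between strains, 2 of the 6 genes named by rule, 1 list member and 14 probesets in B10 alone. Low signals, as for Rgs16, Il2ra and Tnni1, limit the size of a difference.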
